A study of Mus musculus with 48 samples.

Results

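The genes of sugar breakdown and of the response to low oxygen were followed through 48 whole mouse tumours that were sequenced before immunotherapy. The list holds 43 gene symbols, taken by name: glucose and lactate carriers, the enzymes of glycolysis, the kinases that hold pyruvate back from the mitochondria, and genes that low oxygen switches on. Of the 43, 40 had a row in the table of 39637 genes, and all 40 passed the filter on low counts in every comparison; Pfkm, Pgam1 and Ero1l were not analysed here. Tumours of 2 cell lines were grown under the skin of female BALB/c mice aged 8 to 9 weeks. AB1 is a mesothelioma line, and its tumours were removed on day 8; Renca is a renal cancer line, removed on day 10. Each tumour came from its own mouse, and the groups were 12 AB1 responders, 12 AB1 non-responders, 12 Renca responders and 12 Renca non-responders to antibodies against CTLA4 and PD-L1. No mouse had been treated when its tumour was taken, so a responder here is a tumour sampled before a response that came later; how response was scored is not given in the labels used here. Each model is 1 cell line, and each library holds tumour cells together with host cells.

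Glycolysis splits glucose into pyruvate in a chain of enzymes, and lactate dehydrogenase and the lactate carriers dispose of the product when it is not burned in mitochondria. When oxygen falls, the prolyl hydroxylases Egln1 and Egln3 stop marking the factor HIF-1α for destruction, and HIF-1α then binds short sites reading ACGTG or GCGTG near its target genes, which include many glycolytic enzymes. Activated macrophages, neutrophils and T cells also raise glycolysis, and in bulk tumour RNA their share cannot be separated from that of the tumour cells. Fewer cells of a type and less RNA per cell likewise cannot be told apart in these data.

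Sites that could bind HIF-1α were looked up by their letters in RefSeq promoter windows of GRCm38.p6, which run from 250 bases before to 50 bases after a start site. The letters searched were ACGTG and GCGTG on both strands, so that CACGT and CACGC in the printed strand also count, and a CACGTG holds ACGTG on both strands. Entries were found for 37 of the 40 genes, with 53 windows in all. Either motif occurred in 79.2% of these windows and in 43.8% of all 32851 windows of that length; ACGTG alone occurred in 52.8% and 19.6%. A match is a description of the sequence and no evidence of binding. The list was taken by name to hold genes that low oxygen switches on, and some genes have more than 1 window, so these shares are no test. The windows of 5 genes, for Ldha and Pfkfb3 the one of 2 windows with more matches, are printed on the strand of the gene, with the matches in capitals, because these genes stand for the patterns described below: Bnip3, Pgk1 and Ldha for the oxygen-regulated genes whose call differed with and without 1 library, and Pfkfb3 and Hk3 for those whose call did not. The Hk3 window holds 1 match and the Pgk1 window 2, and the windows of Bnip3, Ldha and Pfkfb3 hold more.
Bnip3, chr7:138909457-138909756, minus strand: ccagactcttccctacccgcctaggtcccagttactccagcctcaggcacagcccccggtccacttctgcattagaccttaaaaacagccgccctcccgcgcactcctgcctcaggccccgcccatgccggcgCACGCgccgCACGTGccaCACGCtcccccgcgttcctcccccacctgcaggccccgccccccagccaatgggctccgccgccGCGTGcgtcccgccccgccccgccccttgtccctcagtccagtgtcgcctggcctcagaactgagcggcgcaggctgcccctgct
Pgk1, chrX:106186850-106187149, plus strand: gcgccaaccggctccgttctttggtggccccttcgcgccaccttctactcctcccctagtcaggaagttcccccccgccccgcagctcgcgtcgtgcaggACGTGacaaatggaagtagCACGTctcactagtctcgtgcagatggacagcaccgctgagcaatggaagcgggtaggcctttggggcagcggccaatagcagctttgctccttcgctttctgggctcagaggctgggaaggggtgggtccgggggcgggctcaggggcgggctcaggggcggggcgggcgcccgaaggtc
Ldha, chr7:46845554-46845853, plus strand: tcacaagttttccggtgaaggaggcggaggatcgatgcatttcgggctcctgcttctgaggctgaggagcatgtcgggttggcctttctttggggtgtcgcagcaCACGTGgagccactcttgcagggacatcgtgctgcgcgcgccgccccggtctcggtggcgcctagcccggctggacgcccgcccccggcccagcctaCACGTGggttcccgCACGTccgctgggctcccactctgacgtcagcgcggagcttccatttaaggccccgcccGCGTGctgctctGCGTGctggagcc
Pfkfb3, chr2:11502041-11502340, minus strand: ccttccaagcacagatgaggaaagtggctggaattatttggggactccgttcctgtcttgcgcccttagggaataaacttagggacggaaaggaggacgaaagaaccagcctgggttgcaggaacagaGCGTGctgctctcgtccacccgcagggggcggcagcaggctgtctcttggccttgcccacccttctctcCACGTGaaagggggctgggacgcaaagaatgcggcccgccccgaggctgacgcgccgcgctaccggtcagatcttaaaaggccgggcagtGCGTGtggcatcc
Hk3, chr13:55021336-55021635, minus strand: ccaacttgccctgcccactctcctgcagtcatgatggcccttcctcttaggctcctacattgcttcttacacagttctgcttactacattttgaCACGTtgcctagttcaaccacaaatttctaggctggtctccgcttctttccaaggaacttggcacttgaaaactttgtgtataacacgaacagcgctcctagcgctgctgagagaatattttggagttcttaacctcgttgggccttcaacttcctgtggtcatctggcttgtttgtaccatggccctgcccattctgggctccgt

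Values are in CPM, counts scaled to a common library size, after TMM scaling, a correction for differences in RNA composition; library totals ran from 16.4 to 27.8 M counts and showed no difference between responders and non-responders that passed a permutation test (two-sided p = 0.38 in AB1 and 0.951 in Renca, 100000 resamples). The labels were checked against markers. The renal tubule markers summed to 214 to 474 CPM in Renca and to 16.3 to 57.9 CPM in AB1. Mesothelial markers summed to at most 8.85 CPM in any AB1 library, so the mesothelial origin of AB1 is carried by the label and not by these markers; Msln was not analysed here.

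One library stands apart in the genes described here and has to be named before any result. AB1 non-responder 3 held the highest value of all 24 AB1 libraries for 28 of the 40 genes (70%), against 13.2% of the 15448 genes tested. Its Bnip3, a mitochondrial protein that starts mitophagy under low oxygen, stood at 390 CPM, while the other 11 non-responders lay between 21.3 and 32.8 CPM. Car9, the carbonic anhydrase that is a standard mark of hypoxic tumour, was 42.2 CPM against 2.55 to 4.47 CPM, and Egln3 was 115 CPM against 8.47 to 16.6 CPM. The same library had the lowest RNA purity ratios of the 48 in the labels (260/230 of 1.08 against 1.51 to 2.35 in the others, 260/280 of 1.9 against 1.95 to 2.07), and its skin markers summed to 782 CPM where the median AB1 non-responder had 6.4 CPM. Its skeletal muscle markers, at 3465 CPM, were also the highest of the AB1 non-responders. The part of skin in these values was not tested; fits with the RNA purity ratios or a skeletal muscle score as covariates are given below. The AB1 calls below are given with all 24 libraries and without this one. Leaving out each AB1 library in turn was planned for the AB1 response; leaving this one out of the other comparisons, the related lists and the first flow cell was chosen after the data were seen.

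**Figure D1:**
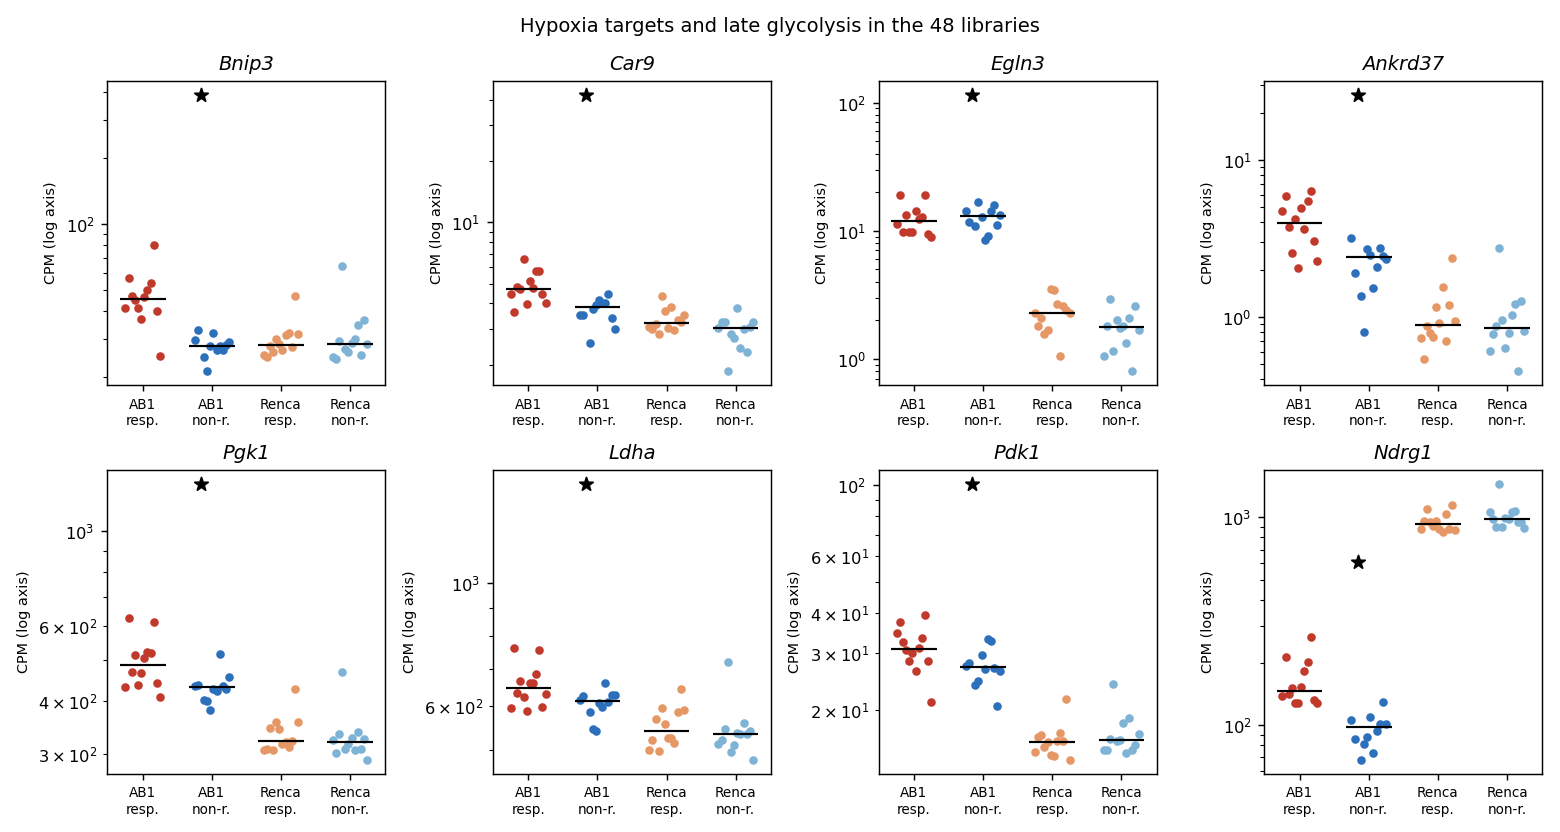
CPM on a log axis of 8 oxygen-regulated and late glycolytic genes in each of the 48 libraries (points), by group, with the group median as a line; the star is AB1 non-responder 3. The star lies above every other AB1 library in all 8 panels, with Bnip3 at 390 CPM against at most 32.8 CPM in the other AB1 non-responders.

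In AB1, the genes that bring glucose in and commit it to glycolysis were higher in the tumours of future responders. The rise ran from the glucose carriers through the hexokinases and phosphofructokinases to pyruvate kinase and the lactate carriers, and Hif1a rose with them, by 0.95 on the log2 scale. With all 24 libraries, 15 of the 40 genes were higher in responders and 3 lower (edgeR quasi-likelihood test, Benjamini-Hochberg adjusted p under 0.05 over all 15388 genes tested). Over all genes, 59.7% passed, 29.6% higher and 30.1% lower, so the 45% of the list that passed is no more than the background; 37.5% of the list was higher and 7.5% lower, and its median change was 0.17 against -0.02 over all genes. Without non-responder 3, 30 genes were higher and 1 lower, 77.5% of the list, while 63% of all genes passed, 31.7% higher and 31.2% lower. The median of the list was then 0.47, against -0.01 over all genes. All 15 genes that were higher with 24 libraries are among the 30. The other 15 are Gpi1, Pfkfb1, Aldoa, Tpi1, Pgk1, Eno1, Ldha, Pdk1, Car9, Bnip3, Ndrg1, Adm, Egln1, Ankrd37 and Higd1a.

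Within the flow cells, the 5 pairs of the first gave 8 calls (20% of the list, 7 higher), beside 37.6% of all genes, 19.5% higher. With non-responder 3 left out there, 27 genes passed (67.5%, 26 higher), beside 44.2% of all genes, 23.1% higher. The 7 pairs of the second flow cell, which does not hold that library, gave 27, all higher, beside 50% of all genes, 26.6% higher. With all 24 libraries and the RNA purity ratios as covariates, 25 genes passed (62.5%), 24 higher and 1 lower, beside 54.8% of all genes, 28.4% higher and 26.3% lower. Gpi1, Aldoa, Tpi1, Eno1, Bnip3, Ndrg1, Adm, Ankrd37 and Higd1a gained a call in that fit, and Eno2 and P4ha2 lost theirs. All the genes that gained a call there are among those gained without non-responder 3. That library had the lowest value of both ratios, so this fit and leaving it out are not separate checks. With a skeletal muscle score as covariate 19 genes passed, 16 higher and 3 lower, beside 61.5% of all genes; Aldoa and Pdk2 gained a call and Eno2 lost its own.

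**Figure D2:**
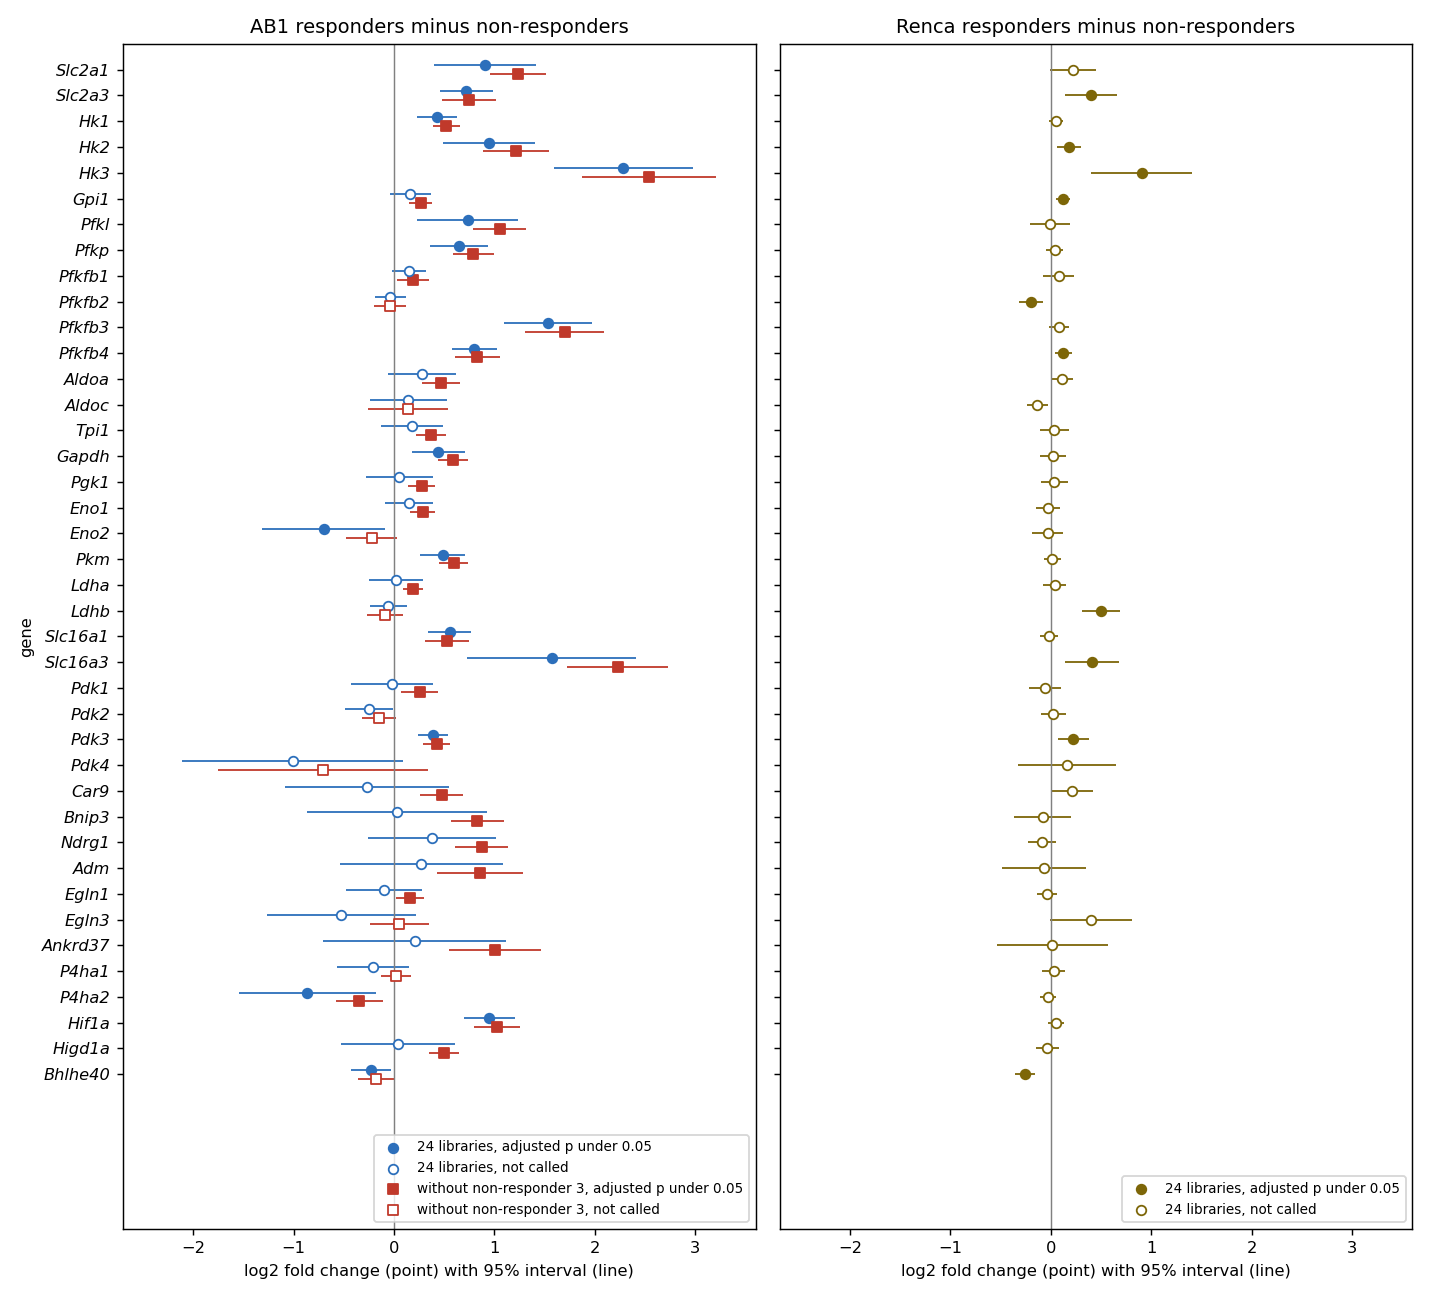
Log2 fold change of each gene between responders and non-responders (points) with its 95% interval (lines), filled where the adjusted p was under 0.05; in AB1, circles use all 24 libraries and squares leave out non-responder 3. Bnip3 moves from 0.03 to 0.83 in AB1 without that library, while Hif1a and Pfkfb3 stay near their values, and in Renca 10 genes are filled.

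Gene positions are given in GRCm38 (GENCODE M21). Hif1a (chr12:73901375-73947530, plus strand), which encodes the oxygen-regulated subunit of HIF-1, ranged from 253 through a median of 441 to 626 CPM in AB1 responders and from 210 through 227 to 361 CPM in non-responders. Of the 12 responders, 10 lay above the highest non-responder, which was non-responder 3, and 11 lay above all the others; responder 12 was the exception. The log2 fold change was 0.95 (SE 0.124, adjusted p = 1.3e-06), and 1.03 without non-responder 3. It is the mRNA that was measured, and HIF-1α is regulated mostly as a protein.

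The glucose carrier Slc2a1 (GLUT1, chr4:119108711-119137983, plus strand) ranged from 56.2 through 115 to 161 CPM in AB1 responders and from 37.3 through 52.0 to 216 CPM in non-responders. All 12 responders were above the non-responder median, and none was above non-responder 3. Its log2 fold change was 0.91 (SE 0.244, adjusted p = 0.00274), and 1.24 without that library. In the first flow cell alone it was 0.45 (adjusted p = 0.476), and 1.25 there without non-responder 3; in the second it was 1.22 (adjusted p = 0.000999). Slc2a3 (GLUT3), a high-affinity carrier of neurons and white blood cells, ranged from 12.9 through 18.8 to 27.1 CPM against 9.38 through 13.1 to 14.3 CPM. Here 10 of 12 responders exceeded every non-responder, with a log2 fold change of 0.72 (SE 0.125, adjusted p = 3.4e-05), and 0.75 without non-responder 3.

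All 3 hexokinases, which trap glucose in the cell as glucose-6-phosphate, were higher in AB1 responders. Hk3 (chr13:55005985-55021385, minus strand), the form of myeloid cells, showed the steepest rise of the list: 98.5 through 381 to 509 CPM against 30.0 through 57.2 to 213 CPM. Responder 12 was the lowest responder, and the other 11 exceeded every non-responder. The log2 fold change was 2.28 (SE 0.331, adjusted p = 4.41e-06), and 2.54 without non-responder 3. Hk2, the form most often raised in tumours, ranged from 73.0 through 120 to 144 CPM against 35.9 through 48.9 to 159 CPM (log2 fold change 0.95, SE 0.219, adjusted p = 0.000715, and 1.22 without non-responder 3). Hk1, the housekeeping form, ranged from 141 through 182 to 208 CPM against 114 through 136 to 225 CPM (0.43, SE 0.0948, adjusted p = 0.000482, and 0.52 without non-responder 3).

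The control point of the pathway is phosphofructokinase, and both measured subunits were higher. Pfkp, the platelet form, ranged from 147 through 232 to 281 CPM in responders and from 115 through 135 to 292 CPM in non-responders (0.65, SE 0.137, adjusted p = 0.000296, and 0.79 without non-responder 3). Pfkl, the liver form, had medians of 122 and 61.9 CPM (0.73, SE 0.241, adjusted p = 0.0118, and 1.05 without non-responder 3). In both genes the highest AB1 value was that of non-responder 3, and 11 of 12 responders exceeded the other 11 non-responders.

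Phosphofructokinase is driven by fructose-2,6-bisphosphate, which the Pfkfb enzymes make and break, and 2 of the 4 were higher. Pfkfb3 (chr2:11471433-11554077, minus strand), the form with the strongest kinase bias, ranged from 110 through 206 to 283 CPM in responders and from 41 through 65.2 to 138 CPM in non-responders. All responders except responder 12 exceeded every non-responder, non-responder 3 included. Its log2 fold change was 1.53 (SE 0.21, adjusted p = 2.25e-06), with 1.54 in the first flow cell, 1.52 in the second and 1.70 without non-responder 3. Pfkfb4 ranged from 37.8 through 46.1 to 64.7 CPM against 19.3 through 29.8 to 38.5 CPM, again with 11 responders above every non-responder (0.80, SE 0.107, adjusted p = 1.74e-06, and 0.83 without non-responder 3). Pfkfb2, the heart form, did not pass (-0.04, 95% interval -0.19 to 0.12), and Pfkfb1, the liver form, passed only without non-responder 3 (0.19, adjusted p = 0.0358, against 0.15 and 0.113 with it).

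**Figure D3:**
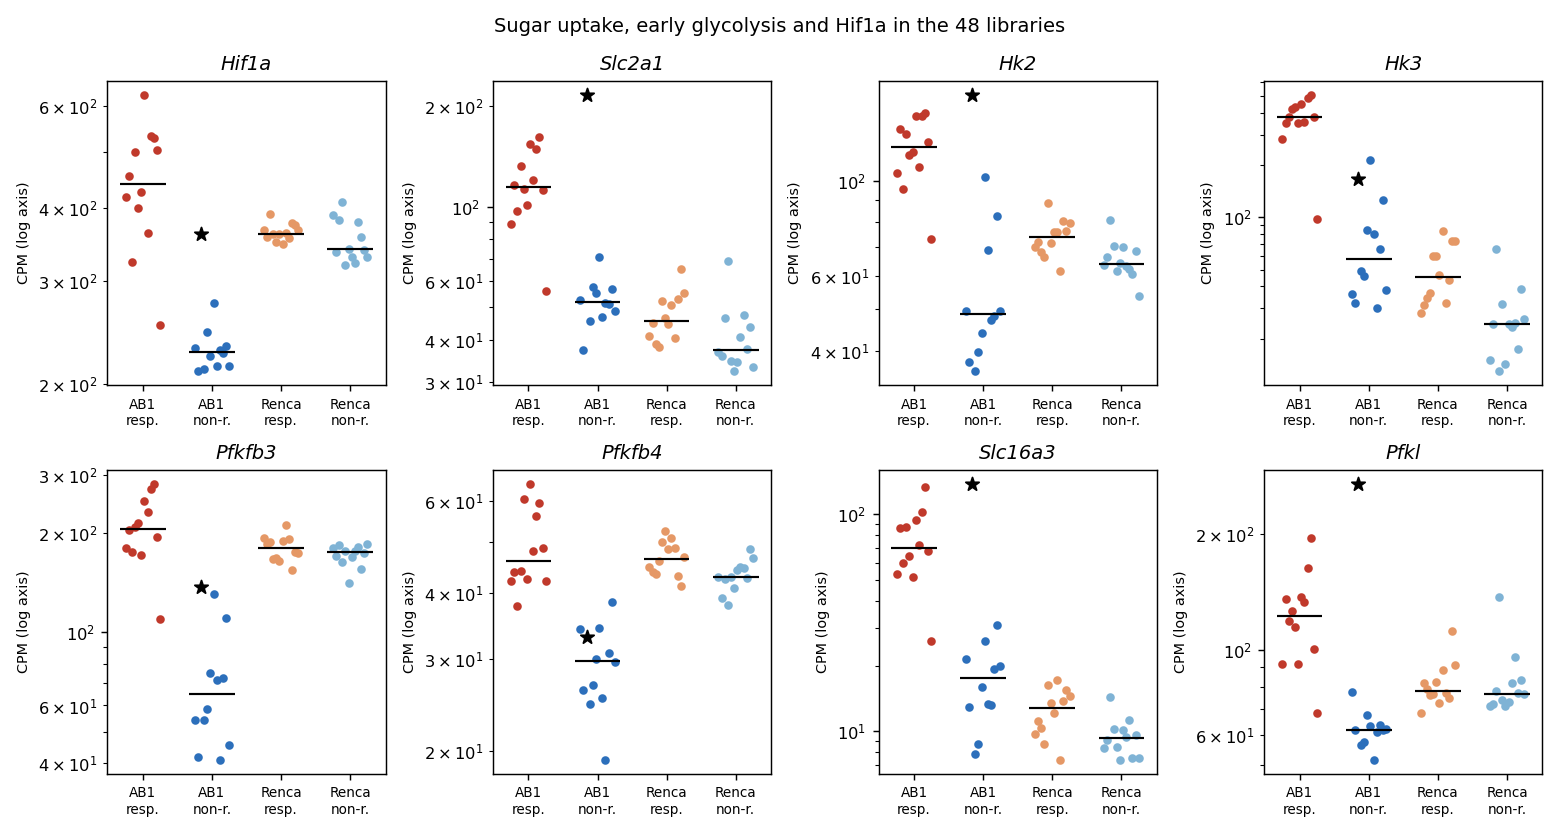
CPM on a log axis of Hif1a and 7 genes of sugar uptake, early glycolysis and lactate export in each of the 48 libraries (points), by group, with the group median as a line; the star is AB1 non-responder 3. In AB1 the responder median is above the non-responder median in all 8 panels, and for Hk3, Pfkfb3 and Pfkfb4 11 of 12 responders are above every non-responder.

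From aldolase to lactate the differences were smaller, and most passed only without non-responder 3 or, for some genes, with the RNA purity ratios in the fit. Pkm, pyruvate kinase, was higher either way, with 1173 through 1561 to 2061 CPM in responders and 992 through 1081 to 1943 CPM in non-responders (0.48, SE 0.107, adjusted p = 0.000482, and 0.59 without non-responder 3). Gapdh was also higher either way, with medians of 116 and 80.6 CPM (0.44, SE 0.128, adjusted p = 0.00483, and 0.59 without non-responder 3). Pgk1, phosphoglycerate kinase, ranged from 409 through 485 to 627 CPM against 382 through 431 to 1292 CPM; its log2 fold change was 0.05 (SE 0.162, adjusted p = 0.79) and became 0.27 (SE 0.0658, adjusted p = 0.000967) without non-responder 3. Ldha, which turns pyruvate into lactate, ranged from 587 through 647 to 762 CPM against 540 through 612 to 1507 CPM and moved in the same way, from 0.02 (adjusted p = 0.92) to 0.19 (adjusted p = 0.00138). Aldoa, Tpi1, Eno1 and Gpi1 had values of 0.15 to 0.28 that did not pass with 24 libraries and 0.27 to 0.47 that passed without non-responder 3. Eno2, the neuronal enolase, was lower with 24 libraries (-0.70, SE 0.294, adjusted p = 0.0441), did not pass without non-responder 3 (-0.22, adjusted p = 0.115), and did not pass with the replicate block (-0.39, adjusted p = 0.162); it lost its call in 10 of 24 fits that left out 1 library. Aldoc and Ldhb did not pass in either fit. Near-identical copies elsewhere in the genome make the levels of Gapdh, Pgk1, Ldha, Aldoa, Tpi1, Eno1 and Pkm uncertain, since how shared reads were counted is not given in the sources used here. Per kilobase of exon, Gapdh had a median of 19.5 to 28.1 CPM in the 4 groups, against 238 to 321 CPM for Aldoa.

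Both lactate carriers were higher in AB1 responders. Slc16a3 (MCT4, chr11:120948480-120960868, plus strand), which exports lactate from glycolytic cells, ranged from 26 through 69.9 to 133 CPM in responders and from 7.87 through 17.7 to 139 CPM in non-responders. The single non-responder above 30.9 CPM was non-responder 3, and responder 12 was the only responder below that value. The log2 fold change was 1.57 (SE 0.403, adjusted p = 0.00185), and 2.23 (SE 0.241, adjusted p = 4.31e-07) without non-responder 3. In the first flow cell alone it was 0.91 (adjusted p = 0.38) and in the second 2.03 (adjusted p = 0.000999). Slc16a1 (MCT1), which carries lactate both ways, ranged from 112 through 170 to 229 CPM against 90.6 through 122 to 159 CPM (0.55, SE 0.102, adjusted p = 6.84e-05, and 0.53 without non-responder 3); non-responder 3 was its lowest library.

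Pyruvate dehydrogenase kinases close the gate from glycolysis to the mitochondria. Pdk3 was higher in AB1 responders, with 32.7 through 43.7 to 56.3 CPM against 30.4 through 34.5 to 42.1 CPM (0.39, SE 0.0705, adjusted p = 6.03e-05, and 0.42 without non-responder 3). Pdk1, the HIF-1 target among them, ranged from 21.2 through 31.0 to 39.5 CPM against 20.5 through 27.2 to 101 CPM. Its log2 fold change was -0.02 (adjusted p = 0.934) with 24 libraries and 0.26 (SE 0.0883, adjusted p = 0.0139) without non-responder 3. Pdk2 and Pdk4, the kinase of fasted muscle and heart, had negative values that passed in neither fit. Of 24 fits that left out 1 library, 11 called Pdk2 lower (-0.25, adjusted p = 0.0641 with all libraries). For Pdk4 it was 3 (-1.01, adjusted p = 0.104 with all libraries).

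Of the 7 hypoxia response genes, none was higher in AB1 responders with 24 libraries and flow cell as covariate (edgeR), beside 29.6% of all genes. Without non-responder 3, 6 were higher, beside 31.7% of all genes. With 24 libraries and the RNA purity ratios as covariates 5 were higher: Bnip3 (0.93, adjusted p = 0.0114), Ndrg1 (0.94, adjusted p = 0.00197), Adm (0.87, adjusted p = 0.0364), Ankrd37 (1.17, adjusted p = 0.00728) and Higd1a (0.52, adjusted p = 0.0183). Car9 did not pass in that fit (0.46, adjusted p = 0.136). Over all genes 28.4% were higher in it. Non-responder 3 had the lowest value of both ratios, so that fit is no check separate from leaving this library out. Bnip3 (chr7:138890836-138909519, minus strand) ranged from 25.1 through 45.7 to 80.6 CPM in AB1 responders and from 21.3 through 27.9 to 390 CPM in non-responders. All responders but responder 12 lay above the 11 non-responders other than non-responder 3. Its log2 fold change was 0.03 (SE 0.431, adjusted p = 0.958), and 0.83 (SE 0.128, adjusted p = 9e-06) without that library. Ankrd37, an ankyrin repeat protein and HIF-1 target, ranged from 2.05 through 3.96 to 6.36 CPM against 0.798 through 2.39 to 26.1 CPM, and went from 0.21 (adjusted p = 0.704) to 1.01 (adjusted p = 0.000403). Car9 ranged from 3.61 through 4.71 to 6.60 CPM against 2.55 through 3.82 to 42.2 CPM; its value changed sign, from -0.27 (adjusted p = 0.573) to 0.47 (adjusted p = 0.00039). Ndrg1, a stress-responsive gene, went from 0.38 (adjusted p = 0.294) to 0.87 (adjusted p = 4.68e-06), and to 0.66 with the replicate block (adjusted p = 0.0362). Adm, the vasodilator adrenomedullin, and Higd1a, a mitochondrial protein, had log2 fold changes of 0.27 and 0.04 with 24 libraries and 0.86 and 0.50 without non-responder 3.

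Not all oxygen-regulated genes joined in. Egln3, the hydroxylase that HIF itself induces, ranged from 8.86 through 11.8 to 19.1 CPM in AB1 responders and from 8.47 through 13.0 to 115 CPM in non-responders. Its log2 fold change was -0.52 with 24 libraries (adjusted p = 0.209) and 0.05 without non-responder 3 (95% interval -0.24 to 0.35). P4ha1, which hydroxylates collagen, had a value of -0.21 with 24 libraries (adjusted p = 0.307) and 0.02 without that library (95% interval -0.13 to 0.17). Its sister P4ha2 was lower in responders with 24 libraries (-0.86, SE 0.328, adjusted p = 0.0271) and without non-responder 3 (-0.35, SE 0.112, adjusted p = 0.00976), and missed the threshold with the replicate block (-0.55, adjusted p = 0.0564) and with the RNA purity ratios in the fit (-0.29, adjusted p = 0.211). Bhlhe40, a clock and stress repressor, was lower (-0.23, SE 0.0946, adjusted p = 0.0419), and did not pass without non-responder 3 (-0.18, adjusted p = 0.0809) or with the block (-0.22, adjusted p = 0.088), and lost its call in 4 of 24 fits that left out 1 library. Of the 6 fibroblast markers tested, 5 were lower in AB1 responders; their part in the P4ha2 result was not tested.

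Leukocyte markers were higher in AB1 responders. All 10 T cell markers and all 5 general leukocyte markers were higher in responders, as were 7 of 9 macrophage markers and 8 of 9 neutrophil markers; Mmp9 was lower. T cell markers summed to 234 to 579 CPM in responders and 78.2 to 213 CPM in non-responders, which did not overlap, and general leukocyte markers to 1645 to 3753 CPM and 808 to 1647 CPM. Macrophage markers summed to 3970 to 6848 CPM and 2594 to 5549 CPM. The summed neutrophil markers, in which Mmp9 counts, had a lower median in responders, 830 CPM against 1143 CPM. No marker of these lists was at 0 throughout. The fibroblast markers summed to 9988 to 28025 CPM in responders and 19556 to 32821 CPM in non-responders, with the responder maximum in responder 12. Responder 12 also had the lowest value of its group in 21 of the 40 genes, and the lowest leukocyte sum. The part of these cell types in the changes of Hk3, Pfkfb3, Slc2a3 and the other genes was not tested.

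Genes next to the list gave a mixed picture in AB1. Over all genes 29.6% were higher and 30.1% lower, and 31.7% and 31.2% without non-responder 3. A count near these shares is no more than the background. The HIF machinery was higher in 5 of 7 genes tested and lower in none: Vhl, which takes HIF-1α to destruction, by 0.47 (SE 0.0712, adjusted p = 7.39e-06), the coactivators Crebbp by 0.32 (SE 0.0503, adjusted p = 9.43e-06) and Ep300 by 0.40 (SE 0.0637, adjusted p = 1.28e-05), with Arnt2 and Hif1an. In the pentose phosphate pathway, which branches off after hexokinase, 4 of 7 genes were higher and 1 lower, led by Pgd at 0.38, G6pdx at 0.60 and Taldo1 at 0.39 (adjusted p = 5.86e-07, 2.28e-06 and 3.98e-06). Of 18 further hypoxia targets, 2 were higher and 5 lower, and 7 and 5 without non-responder 3; Car12 and Loxl2 had the smallest p of the lower ones (-1.63 and -0.79), and Wsb1 was higher by 0.23. Of 14 other isozymes and carriers, 2 were higher, the leukocyte glucose carrier Slc2a6 at 1.90 and Tigar at 0.42, and 4 lower, led by Slc16a7 at -1.05. Of 7 genes of pyruvate entry, 2 were higher, Mpc1 at 0.19 among them, and 2 lower, Pdha1 at -0.25 and Pdp1 at -0.32. The medians of these 5 lists were 0.32, 0.23, -0.16, -0.33 and -0.09, against -0.02 over all genes. Without non-responder 3 they were 0.34, 0.23, 0.05, -0.17 and -0.07, against -0.01, so that of the further hypoxia targets changed sign. Without it, 6 of 7 genes of the HIF machinery were higher and none lower, 4 and 1 of the pentose phosphate pathway, 3 and 5 of the isozymes and carriers, and 2 and 3 of pyruvate entry.

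In Renca the differences between responders and non-responders were small, mostly under 0.5 on the log2 scale, and few. Among the 40 genes, 8 were higher in responders (20%) and 2 lower (5%); over all 15409 genes 19.6% passed, 11.6% higher and 8.01% lower. The median change of the list was 0.04, against -0.01 over all genes. Scaling by total counts alone gave 4 higher and 3 lower, beside 3851 of all 15409 genes, where the main fit called 3027. The first flow cell alone, 6 pairs, called no gene of the list and none of all 15590 genes by edgeR, although 7 of the 40 and 2803 of all genes had an unadjusted p under 0.05. The second, also 6 pairs, called 5 (12.5%), beside 8.19% of all genes. With the RNA purity ratios as covariates, only Ldhb (0.34, adjusted p = 0.0438) and Bhlhe40 (-0.22, adjusted p = 0.0452) of the list passed, 5% of it, beside 1.45% of all genes. The count fell to 6 without responder 5, responder 8, non-responder 6 or non-responder 9, beside 2393 to 2519 of all genes. It fell to 5 without non-responder 10, beside 2407 of all genes.

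Ldhb, which favours turning lactate back into pyruvate, had the smallest p. It ranged from 10.5 through 13.0 to 18.7 CPM in Renca responders and from 7.09 through 9.49 to 11.6 CPM in non-responders. Of 12 responders, 9 exceeded every non-responder (log2 fold change 0.50, SE 0.0904, adjusted p = 0.00312), and its values within the flow cells were 0.42 and 0.57. In AB1 the same gene had -0.06 (95% interval -0.24 to 0.13). Hk3 ranged from 28 through 45.2 to 83.2 CPM against 13.0 through 24.3 to 65.4 CPM, so that the groups overlapped although all 12 responders lay above the non-responder median (0.91, SE 0.241, adjusted p = 0.0117). Bhlhe40 ranged from 226 through 289 to 342 CPM in responders and from 308 through 353 to 378 CPM in non-responders, with 10 responders below every non-responder (-0.26, SE 0.0485, adjusted p = 0.00312). Its within-flow-cell values were -0.18 and -0.34.

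The other Renca calls were narrow. Gpi1, which turns glucose-6-phosphate into fructose-6-phosphate, ranged from 327 through 354 to 420 CPM against 317 through 332 to 365 CPM (0.12, SE 0.033, adjusted p = 0.0132). Pfkfb2 ranged from 14.2 through 19.1 to 23.2 CPM against 19.8 through 21.9 to 23.7 CPM (-0.20, SE 0.0562, adjusted p = 0.0173). Slc2a3 ranged from 6.45 through 9.39 to 16.8 CPM against 5.62 through 7.01 to 10.8 CPM (0.40, SE 0.125, adjusted p = 0.0256). In all 3 genes the values of the groups overlapped. Slc16a3 (0.41, adjusted p = 0.0295), Hk2 (0.18, adjusted p = 0.0265), Pfkfb4 (0.12, adjusted p = 0.0335) and Pdk3 (0.22, adjusted p = 0.0381) were also higher. With the replicate block, Hk2, Pfkfb4 and Slc16a3 no longer passed (adjusted p = 0.0614, 0.0634 and 0.0759). Leaving out single libraries ended the call of Slc2a3 in 3 of 24 fits, of Slc16a3 in 6, of Hk2 in 8, of Pfkfb4 in 10 and of Pdk3 in 15.

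Of the 7 hypoxia response genes, Bhlhe40 alone passed in Renca, lower in responders as given above. Egln3 had a positive value that did not pass (0.40, adjusted p = 0.151 by edgeR). Bnip3 ranged from 24.7 through 28.1 to 47 CPM in responders and from 24.3 through 28.5 to 64.7 CPM in non-responders (-0.08, 95% interval -0.37 to 0.21). Ankrd37 had medians of 0.892 and 0.844 CPM (0.02, 95% interval -0.54 to 0.57), and Car9 3.20 and 3.02 CPM (0.21, 95% interval 0.01 to 0.42, adjusted p = 0.12). Hif1a ranged from 348 through 362 to 391 CPM against 320 through 341 to 411 CPM (0.05, 95% interval -0.02 to 0.13). Slc2a1 had medians of 45.7 and 37.2 CPM and missed the threshold (0.22, adjusted p = 0.165), but passed at 0.32 when non-responder 4 was left out; that library was the highest Renca non-responder in 22 of the 40 genes, Bnip3 included. Pgk1, Ldha and Pdk1 had values of 0.04, 0.04 and -0.06 that did not pass. All 10 T cell and all 5 general leukocyte markers, 6 of 9 macrophage and 3 of 9 neutrophil markers were higher in Renca responders, and 4 of 6 renal tubule markers were lower. Their part in the Hk3 and Slc2a3 results was not tested. T cell markers summed to 214 to 503 CPM in responders and 96.3 to 301 CPM in non-responders.

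The lists next to the members gave few calls in Renca, where 11.6% of all genes were higher and 8.01% lower. None of the 7 genes of the HIF machinery and none of the 7 of pyruvate entry passed by edgeR or DESeq2, and 0 and 1 of them had an unadjusted p under 0.05. Vegfa, the main vascular growth factor, was lower (-0.23, SE 0.0576, adjusted p = 0.00768), Car12 was lower at -0.29 (adjusted p = 0.013), and no other of the 18 further hypoxia targets passed. Slc2a6 was higher (0.32, adjusted p = 0.0263), Pklr lower (-0.24, adjusted p = 0.0413) and Rpia of the pentose phosphate pathway higher (0.07, adjusted p = 0.0398).

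Genes called in both tumours with the same direction were Slc2a3, Hk2, Hk3, Pfkfb4, Slc16a3 and Pdk3, all higher in responders, and Bhlhe40, lower. The 6 are 40% of the list's genes called higher in AB1 and 75% of those called higher in Renca; over all genes tested in both, 1356 were called higher in both, 31% of the AB1 calls and 76.1% of the Renca calls. Hk2, Pfkfb4 and Slc16a3 are among the 6 and lost their Renca call with the replicate block. Whether the 2 tumours differed in their response effect was tested directly in one fit over all 48 libraries. The difference passed for 16 of the 40 genes, 13 with a larger value in AB1 and 3 with a smaller one; over all 16509 genes 45.1% passed, 18.5% larger and 26.6% smaller in AB1. Without AB1 non-responder 3 it passed for 23 genes, 21 larger and 2 smaller, beside 48% of all genes, 20.2% and 27.8%. Pfkfb3 differed most in p, by 1.41 (SE 0.21, adjusted p = 1.46e-06), since its Renca medians were close, at 180 and 175 CPM. Hif1a differed by 0.84 (SE 0.127, adjusted p = 1.84e-06), Pfkfb4 by 0.63 (SE 0.112, adjusted p = 1.99e-05) and Hk3 by 1.33 (SE 0.406, adjusted p = 0.00679). Slc16a1, Pfkp, Pkm, Hk1 and Hk2 differed by 0.52, 0.55, 0.42, 0.32 and 0.72. Ldhb went the other way, by -0.61 (SE 0.13, adjusted p = 0.000204). P4ha2 did so too, by -0.88 (adjusted p = 0.0252), which was -0.38 without AB1 non-responder 3 and did not pass with the replicate block (-0.58, adjusted p = 0.0522). For Ndrg1 the difference did not pass with 48 libraries (0.42, adjusted p = 0.283), and passed with the block (0.68, adjusted p = 0.0377) and with the RNA purity ratios as covariates (1.12, adjusted p = 0.000603). For Slc2a3 and Pdk3 the response effects of the tumours did not differ beyond their error (0.26, 95% interval -0.10 to 0.62, and 0.11, 95% interval -0.10 to 0.31).

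Between the tumour types the list was split. With response in the fit, 20 of the 40 genes were higher in AB1 and 11 lower (77.5%), beside 81.3% of all genes, 42.1% higher and 39.2% lower; without AB1 non-responder 3 it was 20 and 12. Tumour type, day of removal and flow cell cannot be told apart in this comparison. Egln3 had the largest difference: the medians were 11.8 and 13.0 CPM in AB1 and 2.29 and 1.77 CPM in Renca, and every AB1 library lay above every Renca library (3.02, SE 0.248, adjusted p = 1.21e-15, and 2.64 without non-responder 3). Ndrg1 was the reverse, with 68.1 to 608 CPM in AB1 and 847 to 1454 CPM in Renca, again without overlap (-2.71, SE 0.169, adjusted p = 4.82e-20).

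**Figure D4:**
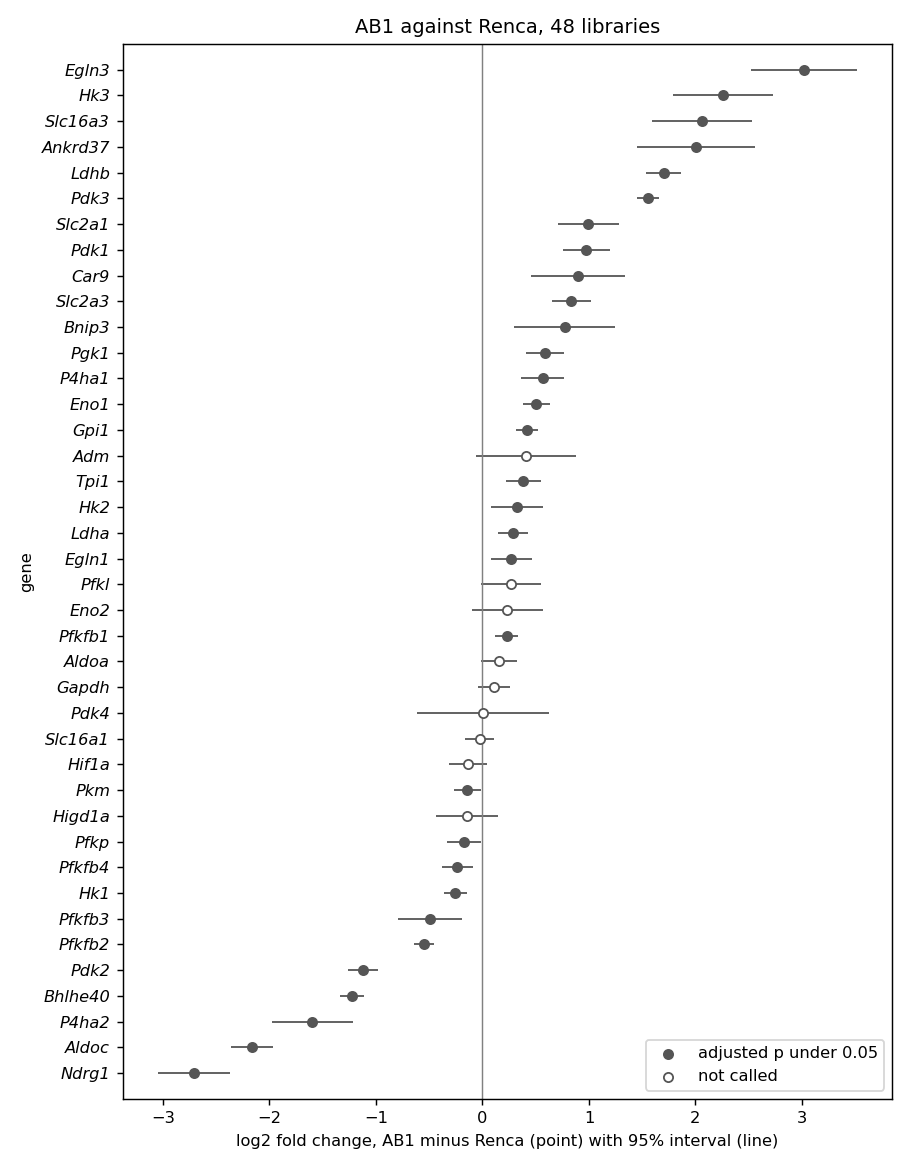
Log2 fold change of each gene between AB1 and Renca over 48 libraries, with response in the fit (points), and its 95% interval (lines), filled where the adjusted p was under 0.05. Egln3 lies at 3.02 and Ndrg1 at -2.71, the extremes of the list.

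Levels of several isozymes differed between the tumours. Aldoc, a minor aldolase of brain and kidney, had a median of 39.9 to 44.9 CPM in the Renca groups and 8.90 to 10.1 CPM in the AB1 groups (-2.16, SE 0.0995, adjusted p = 2.74e-25), while Aldoa did not pass (0.16, 95% interval -0.01 to 0.33). Per kilobase of exon Aldoa was the higher of the 2 in both tumours, with group medians of 238 to 321 CPM against 2.73 to 13.8 CPM for Aldoc. Ldhb had medians of 35.1 and 39.2 CPM in AB1 against 13.0 and 9.49 CPM in Renca (1.70, SE 0.0812, adjusted p = 1.32e-24), and per kilobase Ldha was above it in every group, at 161 to 195 CPM against 6.05 to 24.9 CPM. P4ha2 had medians of 31.2 and 43.7 CPM in AB1 and 137 and 138 CPM in Renca (-1.60, SE 0.19, adjusted p = 1.51e-10), and P4ha1 went the other way (0.57, adjusted p = 1.77e-06). Among the pyruvate dehydrogenase kinases Pdk3 and Pdk1 were higher in AB1 (1.55 and 0.98) and Pdk2 lower (-1.12). Slc16a3 and Hk3, which also moved with response, were higher in AB1 (2.06, SE 0.233, and 2.26, SE 0.233), as was Ankrd37 (2.00, SE 0.275, and 1.54 without non-responder 3). Higd1a passed as lower in AB1 only without non-responder 3 (-0.41, adjusted p = 9.38e-09, against -0.15 and 0.344 with it).

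For the genes with a strong AB1 response effect the order of the tumours depended on which tumours were compared. Hif1a had a value of -0.14 over all libraries that did not pass, and was higher in AB1 among responders alone (0.28, adjusted p = 0.011) and lower among non-responders alone (-0.57, adjusted p = 2.87e-07). Pfkfb3 was lower in AB1 over all libraries (-0.49, adjusted p = 0.00238) and among non-responders alone (-1.21, adjusted p = 1.5e-06), but had 0.20 among responders alone (adjusted p = 0.075). In CPM, the Renca medians of Hif1a, 362 and 341, lay between the AB1 responders at 441 and the AB1 non-responders at 227.

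Within each group of 12, 11 pairs of measures were correlated on the log2 CPM scale, 44 relations in all, and p-values were adjusted over these. Ldha followed Pgk1 in all 4 groups: r was 0.994 in AB1 non-responders (rho 0.951), 0.909 in AB1 responders (rho 0.839), 0.958 in Renca non-responders (rho 0.804) and 0.906 in Renca responders (rho 0.965). The raw permutation p of these r were 1e-05, 0.00017, 0.00044 and 6e-05, with adjusted values of 0.00044, 0.00107, 0.00242 and 0.00066; 1e-05 is the smallest the 100000 resamples can give. Those of rho were 1e-05, 0.00116, 0.00271 and 2e-05, adjusted to 0.00044, 0.00851, 0.0119 and 0.00044. Without the 2 libraries farthest from the median of Pgk1, r was 0.918, 0.727, 0.567 and 0.848. Within the second flow cells r was 0.907, 0.844, 0.877 and 0.889. The 2 enzymes rose and fell together from tumour to tumour in each group. The relation was weakest, at 0.567, in Renca non-responders once their 2 farthest libraries were left out. In the same order of groups, r with Pgk1 was 0.902, 0.687, 0.88 and 0.754 for Slc2a1. For Pdk1 it was 0.946, 0.716, 0.86 and 0.597. In AB1 non-responders without non-responder 3 these fell to -0.136 for Slc2a1 and 0.339 for Pdk1. Without the 2 farthest libraries, r was -0.212, 0.818, 0.558 and 0.442 for Slc2a1. For Pdk1 it was then -0.0378, 0.457, 0.69 and -0.317. The adjusted permutation p of r was 0.0879 for Slc2a1 in AB1 non-responders and 0.0943 for Pdk1 in Renca responders (rho 0.133). In the other groups it was under 0.05 for both genes.

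Bnip3 and Pgk1 tied together less evenly. In AB1 responders r was 0.854 (rho 0.888, permutation p = 0.00012 and 0.00032, adjusted 0.00088 and 0.00282) and 0.825 without the 2 farthest libraries, and in the second flow cell 0.969. In AB1 non-responders r was 0.975 (rho 0.587, permutation p = 0.0123 and 0.0492, adjusted 0.0245 and 0.0944), which rested on non-responder 3: over the other 11 libraries r was 0.341 (rho 0.464, permutation p = 0.293 and 0.158). In Renca non-responders r was 0.905 (rho 0.615, permutation p = 0.00591 and 0.0375, adjusted 0.0163 and 0.0786) and in Renca responders 0.853 (rho 0.692, permutation p = 0.00412 and 0.0162, adjusted 0.0124 and 0.0548). Both fell to 0.448 without the 2 farthest libraries, so they rest in part on those. Other genes were also set against Bnip3, with r in the order AB1 non-responders, AB1 responders, Renca non-responders and Renca responders. For Ankrd37 r was 0.93, 0.77, 0.93 and 0.77, and for Egln3 0.92, 0.82, -0.02 and -0.005. For Car9 it was 0.97, 0.38, -0.57 and 0.22, and for Hif1a 0.87, 0.60, 0.53 and 0.21. In AB1 non-responders without non-responder 3, r was 0.73, -0.43, 0.11 and 0.03 for these genes in turn. Without the 2 libraries farthest from the median of Bnip3, r in the same group order was 0.399, 0.703, 0.776 and 0.218 for Ankrd37. For Egln3 it was -0.149, 0.77, 0.463 and -0.312. For Car9 it was 0.233, -0.0228, 0.12 and 0.507, and for Hif1a 0.399, 0.0767, 0.109 and -0.165. Adjusted permutation p of r was under 0.05 for Ankrd37 in all 4 groups and for Egln3 in AB1 responders, and for no other.

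**Figure D5:**
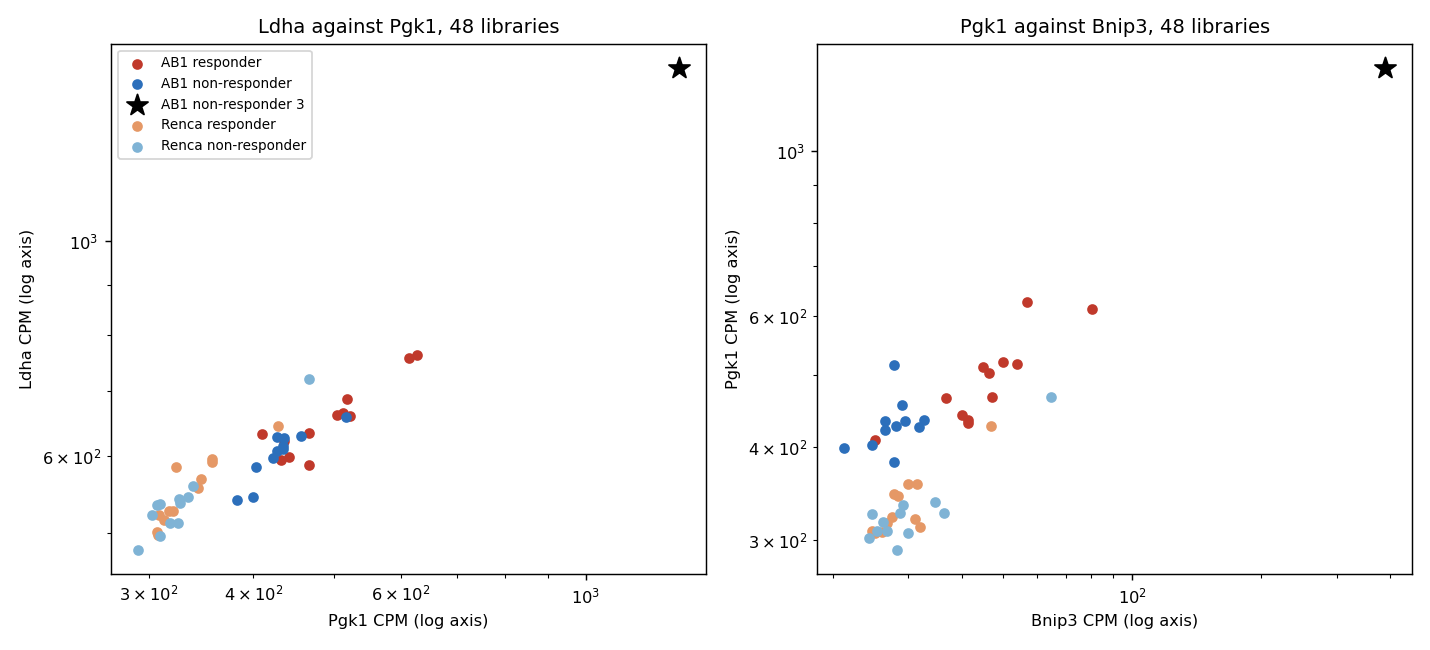
CPM of Ldha against Pgk1 and of Pgk1 against Bnip3 in the 48 libraries, both axes on a log scale, 1 point per library, coloured by group, with AB1 non-responder 3 as a star. Ldha rises with Pgk1 in each group, and the star is far from the other AB1 non-responders on all axes.

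Immune markers tracked some members within groups. Hk3 followed the macrophage markers in Renca non-responders (r = 0.845, rho 0.832, permutation p = 0.00053 and 0.00138, adjusted 0.00259 and 0.00867) and in Renca responders (r = 0.893, rho 0.958, permutation p = 4e-05 and 3e-05, adjusted 0.000587 and 0.00044), with 0.807 and 0.943 without the 2 farthest libraries and 0.898 and 0.924 in the second flow cell. In AB1 the same r was 0.363 in non-responders and 0.45 in responders, with permutation p of 0.246 and 0.126. Pfkfb3 followed the neutrophil markers in AB1 responders (r = 0.769, rho 0.678, permutation p = 0.00216 and 0.0184, adjusted 0.00731 and 0.0578), with 0.80 without the 2 farthest libraries and 0.893 in the second flow cell. In Renca non-responders r was 0.578 (rho 0.65, permutation p = 0.0477 and 0.0256, adjusted 0.0777 and 0.0751) and 0.451 without the 2 farthest libraries. In Renca responders it had r = -0.47 (permutation p = 0.121). In AB1 non-responders r was 0.436 (permutation p = 0.157), and 0.636 without non-responder 3 (rho 0.673, permutation p = 0.0354 and 0.0284). Slc2a3 followed the neutrophil markers in AB1 responders (r = 0.718, rho 0.615, permutation p = 0.00968 and 0.0374, adjusted 0.0213 and 0.0786). Its r was 0.328 in AB1 non-responders, 0.16 in Renca non-responders and 0.196 in Renca responders (permutation p = 0.295, 0.62 and 0.543).

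The genes differed in how much they varied between tumours of one group. The median SD of log2 CPM over the 40 genes was 0.50 in AB1 non-responders, 0.248 in AB1 responders, 0.17 in Renca non-responders and 0.139 in Renca responders. Without non-responder 3 the AB1 non-responders stood at 0.208.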

How the data were processed

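RNA of 48 whole tumours was sequenced. The authors deposited 1 table of raw counts per gene; per the submitters' processing notes, StringTie 1.3.0, HISAT2 2.0.4 and, bcl2fastq 2.18.0.12 are named, and the human builds in the notes do not match the mouse identifiers. How reads were assigned to genes, with which annotation and strand setting, is not given in the sources used here. Of 39637 identifiers, 39461 matched GENCODE M21 (GRCm38), the source of gene positions and exon lengths. Counts were filtered by expression within groups (filterByExpr), scaled by TMM and tested with edgeR 4.0.16 in R 4.3.3 (quasi-likelihood F test, adjusted p threshold 0.05 over all tested genes). Each tumour was fitted alone with flow cell as covariate, and the difference of response effects over all 48 libraries with flow cell within tumour; the comparison of tumours had response as covariate. Standard errors are the log2 fold change over the square root of F. CPM use TMM factors over all libraries. Correlations used SciPy and log2 CPM, to which a prior count of 2 was added. The scripts were tested on simulated data. Library totals were 16.4 to 27.8 M counts.

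No 2 libraries of a group agreed within sampling noise. The labels put every responder and the non-responder of its number on 1 lane (12 of 12 in AB1, 12 of 12 in Renca), so a fit with the replicate number as a block was also made; deviations of paired libraries correlated at -0.0853 to 0.535 in AB1 and -0.128 to 0.298 in Renca. Alternatives were DESeq2 1.42.0, other scaling, no filter, other covariates, single flow cells and leaving out libraries. The genes named in full were the 10 of smallest p in AB1, the 6 in Renca, up to 8 in the difference of effects, the 8 of largest difference between tumours and a fixed panel. The members and all lists were chosen with earlier results of these data known.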

Additional observations from a re-analysis of the deposited data

Results flagged for a closer look

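The response effect is responder minus non-responder on the log2 scale, and an edgeR test was made of its difference between AB1 and Renca. The effect differed for 16 of the 40 genes (adjusted p under 0.05 over 16509 genes). It was larger in AB1 for Pfkfb3 by 1.41, Hk3 by 1.33, Slc16a3 by 1.11, Hif1a by 0.84, Hk2 by 0.72, Pfkl by 0.69, Slc2a1 by 0.64, Pfkfb4 by 0.63, Pfkp by 0.55, Slc16a1 by 0.52, Pkm by 0.42, Gapdh by 0.37 and Hk1 by 0.32. It was smaller in AB1 for P4ha2 (-0.88), Ldhb (-0.61) and Pdk2 (-0.33). Over all genes 45.1% passed, so the 40% of the list that passed is no more than the background. By direction, 32.5% of the list was larger in AB1 and 7.5% smaller, beside 18.5% and 26.6% of all genes. Without AB1 non-responder 3, Pdk2 no longer passed (-0.23, adjusted p = 0.0634) and Slc16a3 stood at 1.76. Pdk2 also lost its call with DESeq2, another scaling (RLE), no filter, the RNA purity ratios or the muscle score. P4ha2 lost its call with DESeq2, the replicate block or the purity ratios. Slc2a1, near the threshold (adjusted p = 0.0497), lost its call with no filter, no flow cell term or the muscle score. Gapdh and Slc16a3 lost theirs with no filter.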

How the results depend on the processing

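The number of genes called in AB1 was 18 with all libraries, 45% of the list beside 59.7% of all genes. It was 8 in the first flow cell alone, 20% of the list beside 37.6% of all genes. There it was 27 without non-responder 3 (44.2% of all genes), and 27 in the second flow cell (50%). With the RNA purity ratios as covariates it was 25 (54.8% of all genes), a fit not separate from leaving out non-responder 3, which had the lowest ratios. Without non-responders 3 and 7 and responder 3 together it was 29, beside 9641 of all 15462 genes. Leaving out single libraries gave 16 to 31, beside 8987 to 9764 of all genes, and only leaving out non-responder 3 moved the count above 20. In Renca, 10 genes were called, beside 19.6% of all genes. The count was 2 with the RNA purity ratios as covariates (1.45% of all genes), 0 in the first flow cell and 5 in the second (8.19%). It was 5 to 11 when single libraries were left out, beside 2393 to 3847 of all genes. In the first flow cell of Renca no gene of all tested passed in the edgeR fit. The other settings, DESeq2 and scaling among them, kept these 2 counts, the 16 of the difference and the 31 between tumours within 1.5 times. Calls of the opposite sign, counted where either fit called the gene, were Pdk1 in AB1 at 0.259 without non-responder 3, 0.249 without the 3 libraries and 0.411 in the first flow cell without non-responder 3; Car9 in AB1 at 0.385 in the second flow cell and 0.474, 0.481 and 0.61 under the same 3 settings; and, between tumours, Hif1a at 0.281 and Pfkfb3 at 0.203 among responders alone and Hk2 at -0.0433 among non-responders alone. When single libraries were left out, Pdk1 ran from -0.0961 to 0.259 and Car9 from -0.365 to 0.474 in AB1. The cause was not tested. Of 1914 recomputed values of named genes, 1745 kept direction and side of the threshold, 130 lost a call and 29 gained one. The replicate block, 16 calls in AB1, 7 in Renca and 16 in the difference, changed no call beyond those named with the results. Total-count scaling moved the median of all genes in AB1 to -0.126. The first flow cell without non-responder 3, and leaving that library out of the other comparisons, were chosen after seeing the data. A planned relation of Pfkm with muscle markers was not run, since Pfkm has no row here.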
